A study of Mus musculus with 6 samples.

Results

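The SLC25 carriers are a family of membrane proteins that move metabolites, nucleotides, coenzymes and ions across the inner membrane of mitochondria, with a few members in other membranes. Their genes were taken as the protein-coding rows whose symbol begins with Slc25a and a digit, which gave 46 of the 25805 genes listed. The rule goes by symbol and uses no measured value, although the family was taken up with earlier results of these data known. RNA was sequenced from kidneys of mice after ischaemia-reperfusion injury (IRI), in which the blood supply of the kidney is stopped and then restored. The groups were 3 libraries labelled CXCR2 knockout with IRI and 3 labelled WT with IRI. Injury was common to both groups, and kidneys without injury were not analysed here. The sources used here do not give the time after injury, the strain, sex or age of the mice, the allele, or whether each library came from a separate mouse, so every p-value reflects only how far these libraries spread, which may be technical.

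Inside mitochondria these carriers feed ATP synthesis with ADP and phosphate and export the ATP, connect the citric acid cycle with the cytosol, and bring in fatty acids as carnitine esters, amino acids, iron and coenzymes. The proximal tubule of the kidney, which reabsorbs most of the filtered solutes, is rich in mitochondria and depends on oxidative metabolism. It is also a segment that ischaemia injures strongly.

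Each library held 15518083 to 20356601 recovered reads. All 15 proximal tubule markers were detected, with summed normalized counts of 295339 to 332540 in libraries labelled knockout and 283531 to 403408 in wild-type libraries. By single genes, 11 of the 15 had log2 fold changes above 0, beside 49.9% of all genes. At an unadjusted p under 0.05, 4 were higher and 0 lower, where 3.94% and 6.14% of all genes were. The median of the 15 was 0.58, or 0.057 without labelled-knockout library 1. Cxcr2 did not separate the groups, at 98.0, 36.8 and 56.6 normalized counts in libraries labelled knockout against 15.9, 88.8 and 56.9 in wild-type libraries. These are sums over the whole gene, and reads outside a deleted part check nothing, so every direction below is one between labels. Labelled-knockout library 1 stood apart. Its 10 brown and white fat markers summed to 40689 normalized counts, against 2291 and 371.5 in labelled-knockout libraries 2 and 3 and 978 to 2760 in wild-type libraries, where the fat genes Cidea, Adipoq and Cox8b were each at 0 in 2 of 3 libraries and Elovl3 in all 3. By the median fat marker, labelled-knockout library 2 also stood above every wild-type library. On the log2 scale from the wild-type mean, that median was 7.37 in library 1, 3.20 in library 2 and -1.58 in library 3. In wild-type libraries 1 to 3 it was 1.79, -1.09 and -0.75. The median log2 fold change of the 10 fat markers was 2.94, or 0.67 without labelled-knockout library 1. In that library the 10 neutrophil markers summed to 4456, against 428 and 973 in the other 2 and 374 to 1293 in wild type. The 7 erythrocyte markers there summed to 13417, against 900 and 779 in the other 2 and 685 to 2805 in wild type. Labelled-knockout library 3 was low in other tubule segments. Its 8 collecting duct markers summed to 3596, against 25360 and 15917 in libraries 1 and 2 and 11120 to 17308 in wild type. The 8 markers of thick limb and distal tubule summed to 25788 there, against 91560 and 48395 in libraries 1 and 2 and 44875 to 82593 in wild type. The 6 fibroblast and smooth muscle markers moved with the label. Their summed normalized counts were 5180, 9738 and 3484 in libraries labelled knockout against 20064, 26011 and 12025 in wild-type libraries. Of the 6, 5 were lower at an unadjusted p under 0.05, where 6.14% of all genes were. DESeq2 called 4, where it called 1.95% of all genes. The 6 endothelial markers summed to 3383 to 7718 in labelled knockout and 7731 to 13381 in wild type, with 3 lower at an unadjusted p under 0.05. The part of these cell markers in the values of the carriers was not tested. In bulk tissue, fewer cells of a type and less RNA per cell cannot be told apart.

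No SLC25 gene passed the test across all genes in this comparison, which asks how kidney expression differs with the Cxcr2 label after injury. The test was limma on log2(normalized count + 1), over genes whose mean normalized count reached 1, with Benjamini-Hochberg adjustment at 0.05. Of 46 members, 45 entered it, and Slc25a41 was left out as too low. Their adjusted p-values ran from 0.391 to 1.00, where 1 of 21721 genes passed, or 0.0046% of all tested. At an unadjusted p under 0.05 there were 6 members, 2 higher and 4 lower in the libraries labelled knockout. That is 13.3% of members beside 10.1% of all genes, of which 3.94% were higher and 6.14% lower. Without wild-type library 1 the count was 3, and without labelled-knockout library 3 it was 8. The groups did not overlap for 11 members (24.4%), 6 higher and 5 lower, where 17.7% of all genes did not overlap, 8.27% higher and 9.43% lower. With edgeR on recovered reads 0 of 43 members passed, where 0.00628% of all genes did, and 6 of 43 reached an unadjusted p under 0.05, where 11.7% did. DESeq2 called 1 of 42 members, Slc25a25, which was lower, where it called 1.95% of all genes in either direction and 1.3% lower. The log2 fold change was above 0 for 25 of the 45 members and below 0 for 20, beside 49.9% and 50.1% of all genes. This split was not stable. It was above 0 for 19 members without labelled-knockout library 1, for 20 without wild-type library 1 and for 30 without wild-type library 3.

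The spread of the members' changes was set beside that of all genes. Of the 39 members whose mean normalized count reached 50, 34 had fold changes within 1.5-fold, or 87.2%, beside 83.7% of all genes at that level. Their median absolute log2 fold change was 0.30, beside 0.24 over all genes at that level. For 31 of the 39 the 95% interval of the fold change lay within 2-fold in both directions. The share of all genes with such intervals was not computed, so whether the carriers differ in this is not known. Labelled knockout over wild type, the median log2 fold change was 0.019 over the 45 members and -0.0010 over all genes. The median standard error was 0.22 for members and 0.23 for all genes with a mean of at least 50. In simulated counts with these depths, genes with a mean of at least 50 were changed by 2-fold to 16-fold, and no library was made to stand apart. There limma recovered 28% of 2-fold changes and 92% of 4-fold changes. Recovery in the real libraries may be lower, so a gene not called may still differ.

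**Figure D1:**
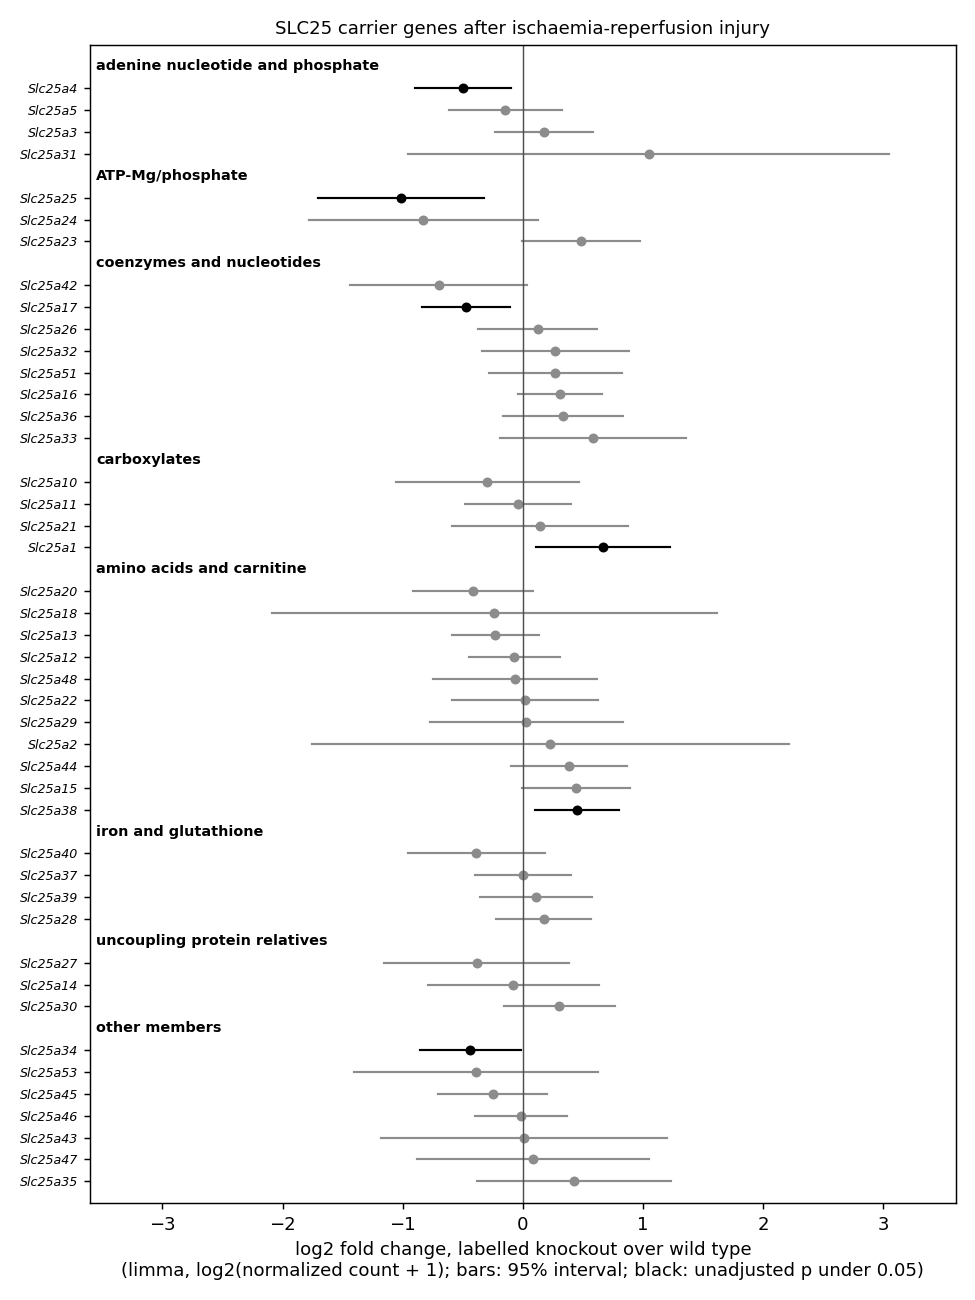
Log2 fold change of 44 of the 45 tested SLC25 genes, libraries labelled knockout over wild-type libraries, as points with 95% intervals from limma, grouped by role down the page. Black marks the 6 members at an unadjusted p under 0.05, of which Slc25a25, at -1.01, lies farthest from 0.

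By level per length, in the length-corrected unit TPM, computed here from the recovered reads and the exonic lengths in the files, the family was headed by 4 genes of ATP synthesis and glutathione transport. Slc25a5, the ADP/ATP carrier ANT2 of growing and epithelial cells, stood at 1124 ± 261 TPM in libraries labelled knockout and 1270 ± 126 TPM in wild-type libraries (SD, n = 3 each). Slc25a39, a carrier needed for mitochondrial glutathione, followed with 584 ± 45.0 TPM in labelled knockout and 568 ± 124 TPM in wild type. Slc25a3, which imports phosphate, had 453 ± 65.2 TPM in labelled knockout and 412 ± 15.9 TPM in wild type. Slc25a4, the ADP/ATP carrier ANT1 of heart and muscle, had 299 ± 62.4 TPM in labelled knockout and 432 ± 38.9 TPM in wild type. Slc25a10, the dicarboxylate carrier, came next at 296 ± 96.0 TPM in labelled knockout and 385 ± 156 TPM in wild type. In wild type the TPM ranges of Slc25a3 (393 to 421), Slc25a4 (393 to 471) and Slc25a10 (240 to 550) overlapped, so their order is not settled beyond the spread, while every Slc25a5 value (1176 to 1410) lay above those of the next gene, Slc25a39 (457 to 702). All 46 members together made up 4382 ± 623 TPM in labelled knockout and 4671 ± 395 TPM in wild type, and 0.536% ± 0.055 and 0.583% ± 0.063 of the reads. The 8 highest members held 72.3% to 76.6% of the family's TPM in each of the 6 libraries.

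At the low end were 7 members with a mean normalized count under 50. Slc25a31, the ADP/ATP carrier of testis, had 3.34, 0 and 6.17 normalized counts in libraries labelled knockout against 0.836, 0.925 and 0 in wild-type libraries. Slc25a41 had at most 2 reads in any library, and Slc25a2, a second ornithine carrier, at most 7. Slc25a18, a glutamate carrier of brain, and the less studied Slc25a43, Slc25a47 and Slc25a53 had group means of 8.0 to 46.6 normalized counts. The groups overlapped for all 7.

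**Figure D2:**
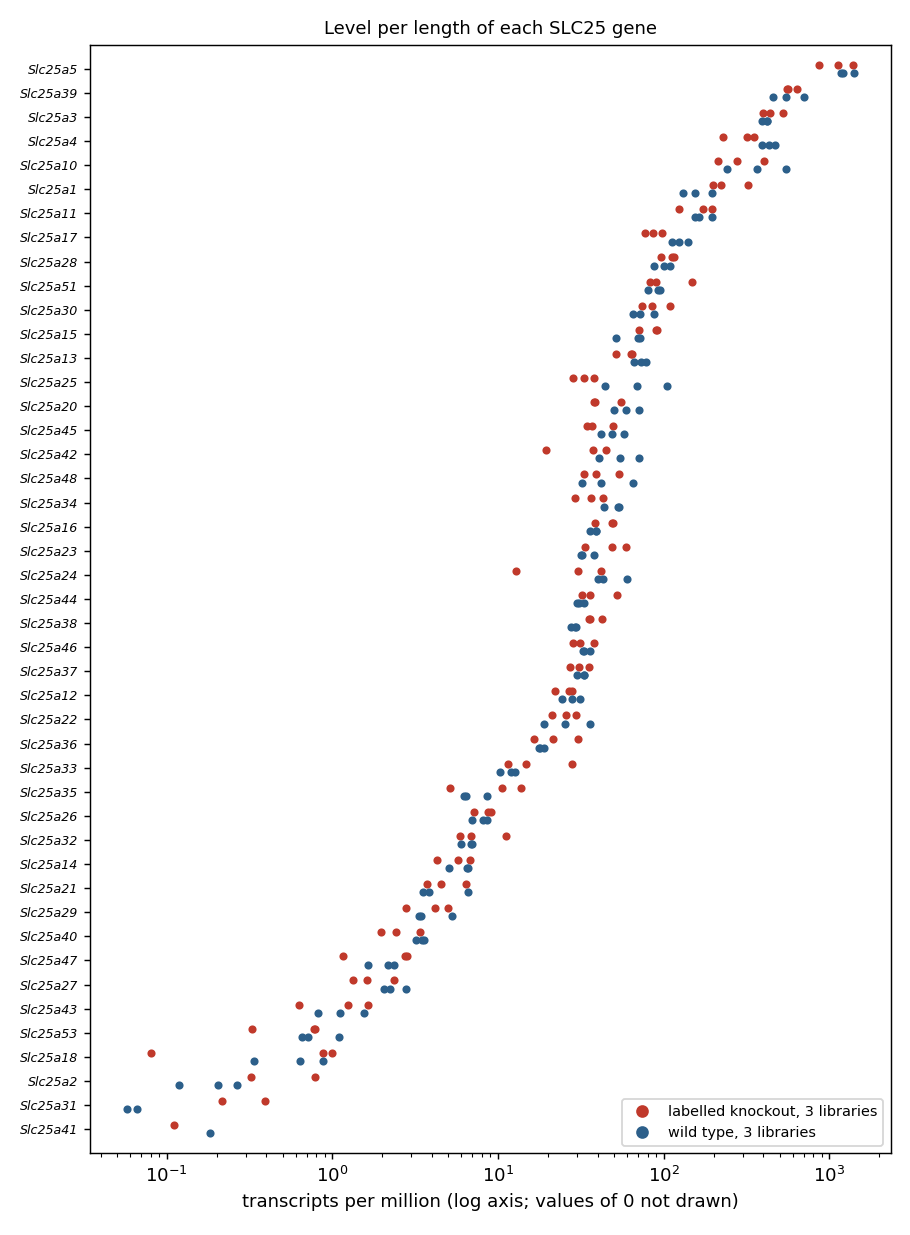
Level per length of 45 of the 46 members in TPM on a log axis, ordered by their mean, with the libraries labelled knockout in red above the wild-type libraries in blue. Slc25a5 leads at over 860 TPM in every library, and for Slc25a4, Slc25a17 and Slc25a25 the red points lie left of the blue ones without overlap.

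The ATP-Mg/phosphate carriers held the member of smallest p. They exchange ATP-Mg for phosphate under control of calcium and so set the total pool of adenine nucleotides in the matrix. Slc25a25 (ENSMUSG00000026819, mm10 chromosome 2, 32414487 to 32451445, minus strand), known as SCaMC-2, had 1879, 1951 and 1649 normalized counts in libraries labelled knockout against 3720, 2303 and 5789 in wild-type libraries. All 3 labelled-knockout values lay below all 3 wild-type values, and the wild-type libraries spread over a wide range while those labelled knockout lay close together. The log2 fold change was -1.01 (SE 0.30, 95% interval -1.70 to -0.32), with a limma adjusted p of 0.391. It was past the threshold with DESeq2 alone (log2 fold change -1.11, adjusted p = 0.0498), and not with edgeR (adjusted p = 0.359). Leaving out wild-type library 3 brought it to -0.68, leaving out wild-type library 2 to -1.35, and leaving out labelled-knockout library 1 to -1.03. Its exons share 379 bases (4.82%) with exons of Naif1 on the other strand, and Naif1 had a mean of 129 normalized counts.

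Slc25a24, or SCaMC-1, the widely expressed member, had 321, 689 and 1066 normalized counts in libraries labelled knockout against 946, 1354 and 1033 in wild-type libraries. The groups overlapped, and the lowest value was that of labelled-knockout library 1. The change in limma was -0.83 on the log2 scale (SE 0.41, adjusted p = 0.546), and -0.36 without labelled-knockout library 1. Slc25a23, or SCaMC-3, pointed the other way, with 2253, 1697 and 1302 normalized counts in labelled knockout against 1149, 1126 and 1407 in wild type. The log2 change in limma was 0.48 (SE 0.22, adjusted p = 0.501), and 0.28 without labelled-knockout library 1.

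The 3 detected ATP-Mg/phosphate carriers were also set side by side as shares of their sum. Per length, Slc25a25 made up 31.5%, 32.2% and 27.4% of their sum in libraries labelled knockout against 49.0%, 32.5% and 56.5% in wild-type libraries. Slc25a23 made up 56.1%, 41.7% and 32.1% in labelled knockout against 22.5%, 23.6% and 20.4% in wild type. Neither share overlapped between the groups, although labelled-knockout library 2 and wild-type library 2 differed by less than 1 point in the share of Slc25a25. Slc25a24 made up the rest, 12.3%, 26.1% and 40.5% in labelled knockout against 28.5%, 43.8% and 23.1% in wild type, with overlap (exact permutation p = 0.60). Its mean difference of -5.50 points turned to 1.50 without labelled-knockout library 1. For Slc25a25 and Slc25a23 the exact two-sided permutation p was 0.10 each, the smallest that 3 against 3 allow, and 0.267 after Benjamini-Hochberg adjustment over the 8 shares of related carriers computed. The shares were chosen after values were seen, so these p-values are no separate test of either gene. The 3 shares of a library make up the whole, so they do not vary independently. The 4 genes of this role summed to 105, 117 and 104 TPM in labelled knockout against 141, 137 and 185 TPM in wild type.

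**Figure D3:**
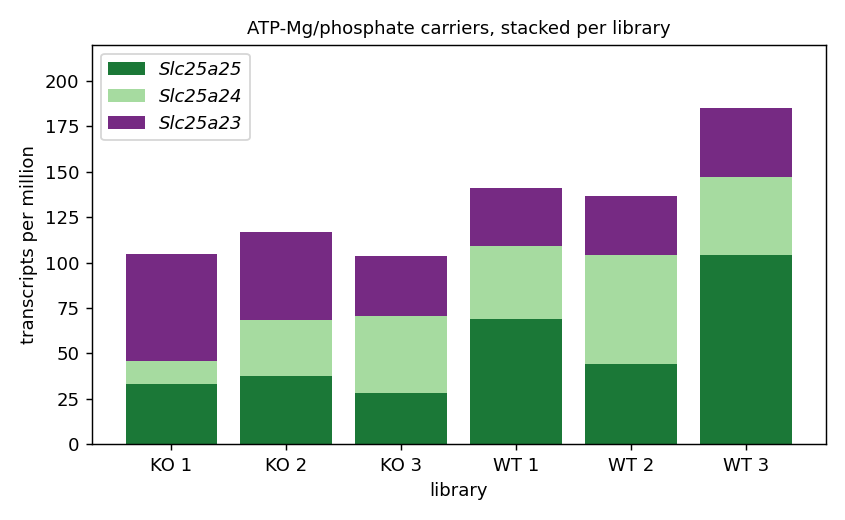
Stacked levels per length, in TPM, of Slc25a25, Slc25a24 and Slc25a23 in each library, labelled-knockout libraries 1 to 3 to the left of wild-type libraries 1 to 3. Every wild-type bar is taller than every bar labelled knockout, and the Slc25a25 part is largest in wild-type library 3.

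Promoter sequences are shown for Slc25a25 and for 3 other members at an unadjusted p under 0.05 whose promoters hold the same letters. They come from RefSeq on GRCm38.p6, the assembly of mm10, and run from 250 bases before a transcript start to 50 bases after it. A row was matched by symbol for 35 of the 46 members. Capitals mark CCGGAAG, a core sequence bound by ETS family factors, and TGACGTCA, the cAMP response element bound by CREB. Both were searched on either strand, and the motifs do not overlap one another. Slc25a25 has 3 listed starts, of which the outermost and the innermost are given.
Slc25a25 start 1, chr2:32451421-32451720, minus strand: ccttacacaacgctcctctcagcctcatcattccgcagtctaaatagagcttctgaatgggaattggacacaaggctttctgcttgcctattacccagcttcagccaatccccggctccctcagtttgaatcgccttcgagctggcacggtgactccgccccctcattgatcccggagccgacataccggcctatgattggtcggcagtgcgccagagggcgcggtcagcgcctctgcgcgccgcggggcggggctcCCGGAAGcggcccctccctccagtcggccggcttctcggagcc
Slc25a25 start 3, chr2:32424017-32424316, minus strand: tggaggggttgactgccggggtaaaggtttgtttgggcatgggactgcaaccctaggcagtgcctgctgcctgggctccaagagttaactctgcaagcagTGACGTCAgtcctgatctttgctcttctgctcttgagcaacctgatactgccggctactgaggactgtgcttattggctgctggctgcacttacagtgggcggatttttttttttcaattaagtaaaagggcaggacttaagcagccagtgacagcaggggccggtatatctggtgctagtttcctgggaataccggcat
Slc25a4, chr8:46211013-46211312, minus strand: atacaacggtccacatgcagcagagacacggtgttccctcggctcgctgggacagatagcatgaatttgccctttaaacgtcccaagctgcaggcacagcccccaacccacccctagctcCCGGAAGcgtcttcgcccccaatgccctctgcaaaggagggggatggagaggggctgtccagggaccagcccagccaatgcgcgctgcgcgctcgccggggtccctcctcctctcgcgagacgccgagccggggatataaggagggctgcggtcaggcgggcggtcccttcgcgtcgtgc
Slc25a17, chr15:81360716-81361015, minus strand: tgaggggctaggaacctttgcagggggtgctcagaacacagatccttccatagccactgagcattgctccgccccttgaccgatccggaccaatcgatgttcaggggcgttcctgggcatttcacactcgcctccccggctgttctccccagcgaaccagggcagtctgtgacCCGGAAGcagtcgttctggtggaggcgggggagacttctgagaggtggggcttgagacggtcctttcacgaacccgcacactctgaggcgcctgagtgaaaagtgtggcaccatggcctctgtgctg
Slc25a38, chr9:120110132-120110431, plus strand: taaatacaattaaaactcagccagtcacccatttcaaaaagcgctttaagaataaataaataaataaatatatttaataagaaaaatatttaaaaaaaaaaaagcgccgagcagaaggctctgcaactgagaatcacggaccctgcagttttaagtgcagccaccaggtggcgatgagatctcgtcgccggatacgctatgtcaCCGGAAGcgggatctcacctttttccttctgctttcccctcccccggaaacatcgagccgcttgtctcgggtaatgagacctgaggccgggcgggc

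TGACGTCA began 150 bases before start 3 of Slc25a25 and was found in 2 of the 45 promoters of members, or 4.44%, the other being of Slc25a36, and in 1.79% of all 32851 promoters. CCGGAAG began 7 bases after start 1 of Slc25a25 and 130, 77 and 46 bases before the starts of Slc25a4, Slc25a17 and Slc25a38. It was found in 6 of the 45 promoters of members, or 13.3%, and in 8.86% of all promoters. Of these 4 genes, which were picked by p and by these letters, 3 had lower and 1, Slc25a38, had higher means in libraries labelled knockout. The letters were also found for Slc25a3 (log2 fold change 0.18) and Slc25a20 (-0.42), neither at an unadjusted p under 0.05 in limma. They were not found for Slc25a1 and Slc25a34, which were at an unadjusted p under 0.05. More widespread was the GC box GGGCGG, in 84.4% of the 45 promoters of members and 35.7% of all promoters. The E-box CACGTG was in 17.8% of member promoters and 7.15% of all, among them Slc25a1. No member promoter held the palindromic motif of the factor NRF1, which 0.971% of all promoters held. The median content of G and C was 59.0% in member promoters and 52.7% in all. A match describes letters only, and the counts here cannot tell one start of Slc25a25 from another.

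Of the carriers of ADP, ATP and phosphate, only Slc25a4 was among the members at an unadjusted p under 0.05. Slc25a4 (ENSMUSG00000031633, chromosome 8, 46206797 to 46211284) had 5450, 5405 and 3986 normalized counts in libraries labelled knockout against 6941, 7308 and 6528 in wild-type libraries. The groups did not overlap. The log2 fold change was -0.50 (SE 0.18, 95% interval -0.90 to -0.10, adjusted p = 0.431 in limma), and it stayed between -0.58 and -0.35 with any 1 library left out. Slc25a5 (chromosome X, 36795651 to 36798807) had 16478, 12239 and 10463 normalized counts in labelled knockout against 15898, 13139 and 13653 in wild type. Here the groups overlapped, with the highest value in labelled-knockout library 1 and the lowest in library 3. On the log2 scale the difference was -0.14 (SE 0.21, 95% interval -0.62 to 0.33, adjusted p = 0.832 in limma).

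Per length, Slc25a4 made up 18.8%, 23.6% and 21.04% of the sum of both ADP/ATP carriers in libraries labelled knockout against 23.4%, 28.0% and 25.1% in wild-type libraries. The means were 21.1% ± 2.41 and 25.5% ± 2.34 (SD, n = 3 each), and the groups overlapped by the values of labelled-knockout library 2 and wild-type library 1 (exact permutation p = 0.20, two-sided, adjusted p = 0.267 over the 8 shares). Slc25a5 has processed pseudogenes with nearly the same sequence, Gm5529 (96.8% identity over 900 bases) and Gm5560 (98.3% over 887), so its count is uncertain by what was assigned to them. Gm5529 had 128, 104 and 116 normalized counts in labelled knockout against 81.1, 65.7 and 91.0 in wild type. Slc25a3, without which ATP synthase has no phosphate, had 21069, 16025 and 16262 normalized counts in labelled knockout against 16027, 14391 and 16463 in wild type (log2 fold change 0.18, SE 0.18, adjusted p = 0.751 in limma). Labelled-knockout library 1 stood highest, the other 5 lay between 14391 and 16463, and the log2 fold change was 0.049 without it.

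**Figure D4:**
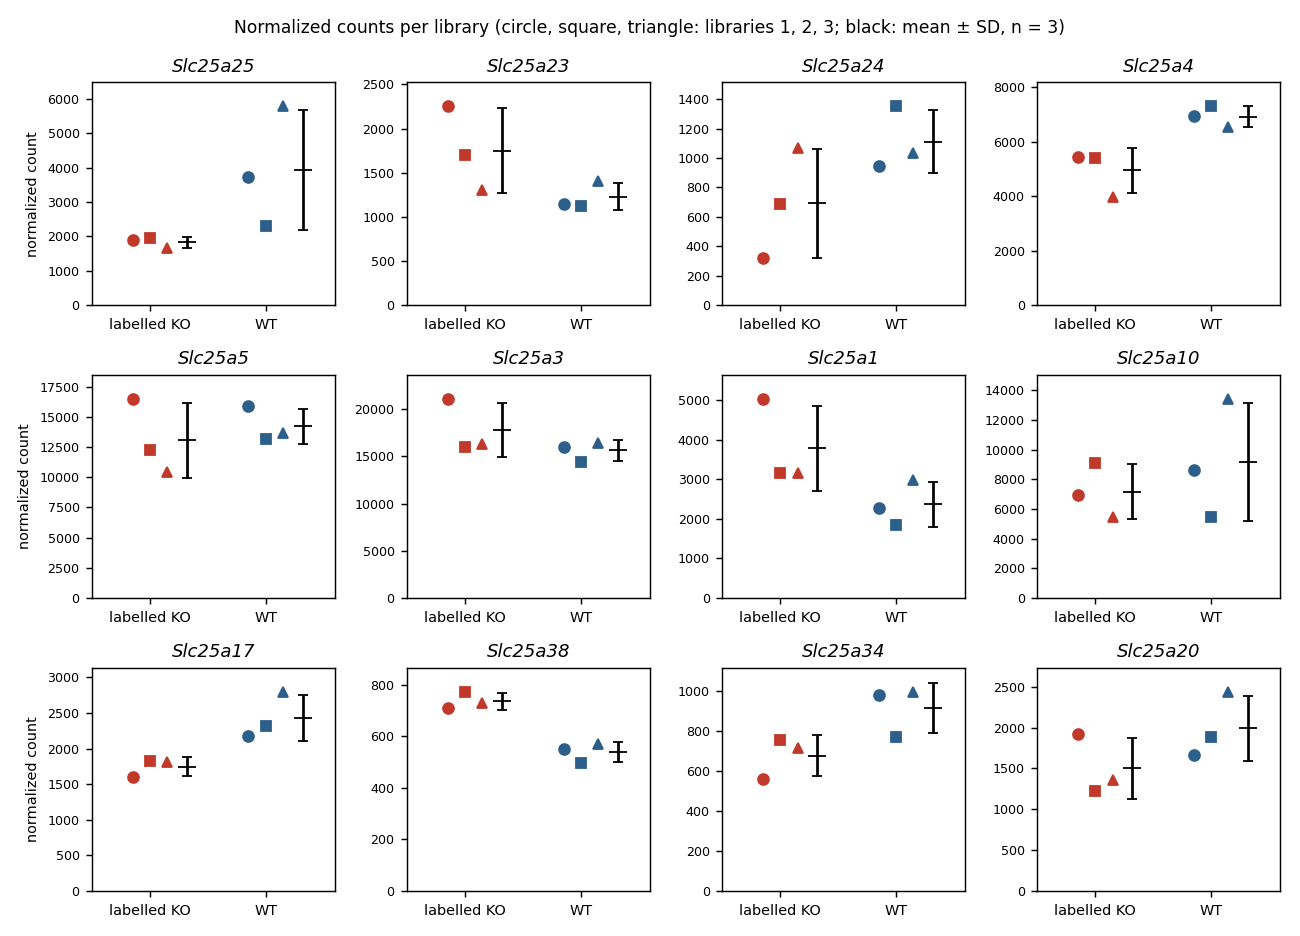
Normalized counts of 12 members in each library, libraries labelled KO in red to the left of wild-type libraries in blue, with the mean ± SD in black (n = 3 each) and axes from 0. The 2 groups are clear of each other for Slc25a25, Slc25a4, Slc25a1, Slc25a17, Slc25a38 and Slc25a34, and overlap for the other 6.

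Among the carriers of carboxylates, Slc25a1 stood higher in libraries labelled knockout. Slc25a1 (ENSMUSG00000003528, chromosome 16, 17925223 to 17928219) exports citrate, from which the cytosol makes acetyl-CoA for fatty acid and sterol synthesis. It had 5031, 3159 and 3174 normalized counts in labelled knockout against 2284, 1856 and 2973 in wild type. The groups did not overlap, but labelled-knockout libraries 2 and 3 lay close above wild-type library 3. The log2 fold change was 0.67 (SE 0.24, 95% interval 0.11 to 1.22, adjusted p = 0.437 in limma), and 0.44 without labelled-knockout library 1. Fat cell markers were highest in that library, and by their median labelled-knockout library 2 also lay above wild type. The part of fat cells in the change of Slc25a1 was not tested. Slc25a10, which exchanges malate and succinate for phosphate, had 6903, 9123 and 5422 normalized counts in labelled knockout against 8620, 5475 and 13397 in wild type. The wild-type libraries alone spanned the values of all those labelled knockout but 1, and the log2 fold change of -0.30 (SE 0.33, adjusted p = 0.781 in limma) was 0.025 without wild-type library 3. Slc25a11, the oxoglutarate/malate carrier of the malate-aspartate shuttle, had 2643, 2722 and 1944 normalized counts in labelled knockout against 2384, 2171 and 2940 in wild type (log2 fold change -0.04, SE 0.19, adjusted p = 0.958 in limma). Its direction turned without labelled-knockout library 3 (0.11) and without wild-type library 3 (0.08). Of its exonic bases, 8.92% are shared with Rnf167 on the other strand. Slc25a21, the carrier of 2-oxoadipate, stood at 167 ± 35.7 in labelled knockout and 155 ± 57.4 in wild type.

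Carriers of coenzymes and nucleotides numbered 9, of which 7 had log2 fold changes above 0 and 2 below, 1 of them, Slc25a17, at an unadjusted p under 0.05. Slc25a17 (ENSMUSG00000022404, chromosome 15, 81318911 to 81360812) lies in the membrane of peroxisomes and carries CoA, FAD and NAD. It had 1595, 1824 and 1817 normalized counts in labelled knockout against 2173, 2323 and 2795 in wild type. The groups were apart, and the log2 fold change of -0.47 (SE 0.16, 95% interval -0.84 to -0.11, adjusted p = 0.425 in limma) stayed between -0.55 and -0.37 with any 1 library left out. Slc25a42, which brings CoA into mitochondria, stood at 1422 ± 486 in labelled knockout and 2282 ± 704 in wild type, with its lowest value, 868, in labelled-knockout library 3. The groups overlapped, and the log2 fold change of -0.70 (SE 0.32, adjusted p = 0.514 in limma) was -0.38 without that library.

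Slc25a51, the carrier of NAD into mitochondria, had 5914, 3276 and 3379 normalized counts in libraries labelled knockout against 3559, 2914 and 3592 in wild-type libraries. Labelled-knockout library 1 alone stood out, and the log2 fold change of 0.27 (SE 0.24, adjusted p = 0.726 in limma) was -0.0054 without it. The same library was highest for Slc25a33 (380 normalized counts against 183 or less elsewhere) and Slc25a36 (2095 against 1360 or less), which carry pyrimidine nucleotides, and for Slc25a32 (491 against 291 or less), the folate and FAD carrier. Slc25a16, linked to CoA transport, had 1701, 1571 and 1371 normalized counts in labelled knockout against 1278, 1142 and 1322 in wild type, without overlap (log2 fold change 0.31, SE 0.15, adjusted p = 0.545 in limma). Slc25a26, which imports the methyl donor S-adenosylmethionine, stood at 282 ± 37.5 in labelled knockout and 259 ± 37.0 in wild type.

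Carriers of amino acids and of carnitine made up 11 members, 6 with log2 fold changes above 0 and 5 below. Slc25a38 (ENSMUSG00000032519, chromosome 9, 120110374 to 120124504) imports glycine for the first step of haem synthesis. It had 708, 772 and 729 normalized counts in labelled knockout against 549, 496 and 570 in wild type. Both groups were tight and apart, and the log2 fold change of 0.45 (SE 0.15, 95% interval 0.10 to 0.80, adjusted p = 0.424 in limma) stayed between 0.39 and 0.49 with any 1 library left out. Its value in labelled-knockout library 1, where erythrocyte markers were highest, was the lowest of the 3 labelled knockout, by a small step. The part of erythrocytes in these values was not tested. Slc25a15, which exchanges ornithine for citrulline, had 2909, 3320 and 3778 normalized counts in labelled knockout against 2758, 1902 and 2769 in wild type (log2 fold change 0.44, SE 0.20, adjusted p = 0.499 in limma), again without overlap, and the value was 0.26 without wild-type library 2.

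Slc25a20, the carnitine-acylcarnitine translocase that brings long-chain fatty acids to oxidation, had 1924, 1220 and 1362 normalized counts in libraries labelled knockout against 1662, 1882 and 2435 in wild-type libraries. Only labelled-knockout library 1 lay within the wild-type range, and the log2 fold change of -0.42 (SE 0.22, adjusted p = 0.554 in limma) was -0.61 without it and -0.26 without wild-type library 3. A stretch of 366 of the 4844 exonic bases of this gene recurs at 95% identity or more in 18 other annotated genes. Of these, only Tmem72 is among the genes listed. The count of Slc25a20 is uncertain by the reads from that stretch. Of the aspartate/glutamate carriers of the malate-aspartate shuttle, Slc25a12 (aralar) stood near parity, at 1325 ± 146 in labelled knockout and 1396 ± 193 in wild type. Slc25a13 (citrin) stood at 1604 ± 146 and 1884 ± 217 (log2 fold change -0.23, SE 0.16, adjusted p = 0.641 in limma). That change stayed between -0.32 and -0.15 with any 1 library left out. Its groups overlapped in normalized counts but not in TPM (51.8 to 64.5 in labelled knockout, 66.1 to 78.0 in wild type). Per length, Slc25a12 made up 29.9% ± 0.58 of the pair in labelled knockout and 27.7% ± 2.43 in wild type (exact permutation p = 0.20). Slc25a44, a carrier of branched-chain amino acids, had 1362, 849 and 852 normalized counts in labelled knockout against 732, 724 and 838 in wild type. The groups lay apart by a narrow margin (log2 fold change 0.38, SE 0.21, adjusted p = 0.570 in limma), and leaving out labelled-knockout library 1 gave 0.16. The glutamate carrier Slc25a22, at 1084 ± 231 in labelled knockout and 1093 ± 376 in wild type, and the choline carrier Slc25a48, at 1002 ± 288 and 1075 ± 422, spread more within the groups than between them.

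The carriers of iron and glutathione showed no member at an unadjusted p under 0.05. Slc25a37, or mitoferrin 1, the iron importer of red cell precursors, had 1344, 1075 and 1573 normalized counts in libraries labelled knockout against 1240, 1312 and 1395 in wild-type libraries. The log2 fold change was 0.0005 (SE 0.18, 95% interval -0.40 to 0.40, adjusted p = 1.00 in limma). Erythrocyte markers summed highest in labelled-knockout library 1, and their part in the values of Slc25a37 was not tested. Slc25a28, or mitoferrin 2 of non-erythroid tissue, stood at 1159 ± 177 in labelled knockout and 1023 ± 99.7 in wild type. Per length it made up 77.6% ± 1.04 of both mitoferrins in labelled knockout and 75.5% ± 1.15 in wild type (exact permutation p = 0.20). Slc25a39 had 11196, 11543 and 11313 normalized counts in labelled knockout against 10279, 8308 and 13648 in wild type (log2 fold change 0.11, SE 0.20, adjusted p = 0.880 in limma), and this became -0.062 without wild-type library 2. The 3 libraries labelled knockout were nearly equal inside the wide wild-type range. Its relative Slc25a40 had 119, 186 and 150 normalized counts in labelled knockout against 200, 198 and 189 in wild type, without overlap (log2 fold change -0.39, SE 0.25, adjusted p = 0.619 in limma, and -0.22 without labelled-knockout library 1).

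Of the uncoupling protein relatives, Slc25a30, named the kidney mitochondrial carrier, stood at 2900 ± 633 in libraries labelled knockout and 2337 ± 417 in wild-type libraries, with its highest value, 3631, in labelled-knockout library 1. Slc25a14 (UCP5) stood at 93.6 ± 22.8 in labelled knockout and 98.1 ± 17.04 in wild type, and Slc25a27 (UCP4) at 48.7 ± 11.6 and 63.1 ± 8.04. Among the members whose substrate is least known, Slc25a34 (ENSMUSG00000040740, chromosome 4, 141618824 to 141623821) had 561, 753 and 717 normalized counts in labelled knockout against 980, 771 and 995 in wild type. The groups were apart by the small step between labelled-knockout library 2 and wild-type library 2. The log2 fold change was -0.44 (SE 0.19, 95% interval -0.86 to -0.01, adjusted p = 0.481 in limma), and -0.31 without labelled-knockout library 1. Slc25a46, which sits in the outer membrane and takes part in mitochondrial shape, stood at 1006 ± 175 in labelled knockout and 1007 ± 25.2 in wild type. Slc25a45 stood at 755 ± 166 and 892 ± 133, and Slc25a35, which shares 31.3% of its exonic bases with Rangrf on the other strand, at 254 ± 114 and 176 ± 26.0. The groups overlapped for these 3 and for all 3 uncoupling protein relatives.

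By library, labelled-knockout library 1 was the highest of the 6 for 14 of the 39 members with a mean of at least 50, or 35.9%, and the lowest for 6, or 15.4%. Over all genes at that level the same library was the highest for 31.7% and the lowest for 30.01%. Wild-type library 3 was the highest for 13 members (33.3%, beside 11.9% of all genes), and wild-type library 2 was the lowest for 12 (30.8%, beside 18.8%). Labelled-knockout library 3 was the lowest for 11 (28.2%, beside 17.5%). Relative to the wild-type mean, the median member stood at 0.18, 0.014 and -0.047 on the log2 scale in labelled-knockout libraries 1 to 3, and at -0.027, -0.077 and 0.13 in wild-type libraries 1 to 3. The median over all tested genes lay within 0.01 of 0 in each library. The medians of the labels overlapped, since wild-type library 3 stood between labelled-knockout libraries 1 and 2. Proximal tubule markers had medians of 1.16, 0.44 and -0.0060 in labelled-knockout libraries 1 to 3 and of 0.34, -0.47 and 0.095 in wild-type libraries 1 to 3 on the same scale, and their part in these medians was not tested.

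**Figure D5:**
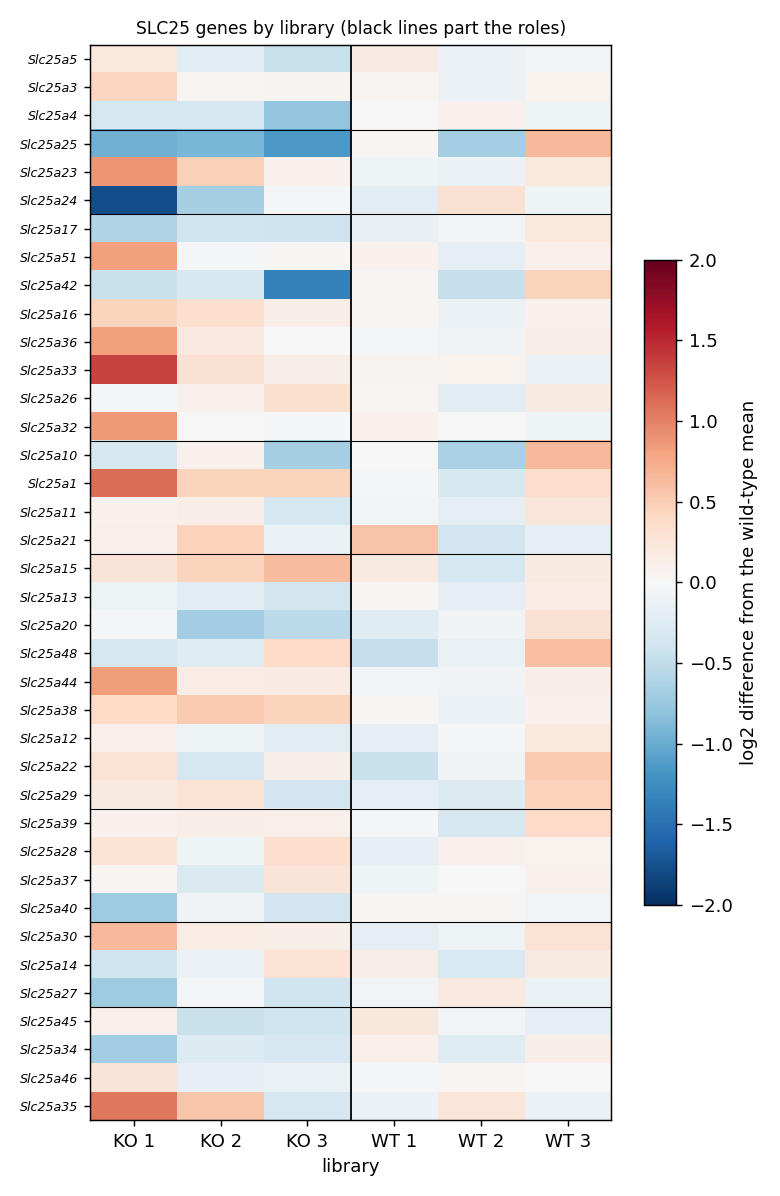
Log2 difference of each library from the wild-type mean for 38 of the 39 members whose mean normalized count reached 50, with libraries labelled KO to the left of wild-type libraries and roles parted by black lines. Red marks higher and blue lower values, Slc25a25 is blue in all 3 libraries labelled KO, and Slc25a33, Slc25a1 and Slc25a51 are among the red members of labelled-knockout library 1.

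The members are spread over 19 chromosomes, with up to 5 on one, chromosome 11. On chromosome 12, Slc25a29 (minus strand, ending at 108835883) and Slc25a47 (plus strand, starting at 108836046) lie head to head with 162 bases between them. Slc25a29, a carrier of basic amino acids, stood at 72.6 ± 16.8 in libraries labelled knockout and 71.7 ± 21.7 in wild-type libraries, and Slc25a47 at 46.6 ± 18.2 and 41.7 ± 7.197. On chromosome 17 the related Slc25a41 and Slc25a23 follow one another 2056 bases apart on the minus strand, and only Slc25a23 was well detected. On chromosome X, Slc25a43 and Slc25a5 follow one another 18448 bases apart, with group means of 14.1 to 14.6 normalized counts for Slc25a43.

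Relatives outside the Slc25a symbols were read from the same fit. Ucp2, an uncoupling protein of many tissues and leukocytes, had 3602, 6798 and 7128 normalized counts in libraries labelled knockout against 7509, 9486 and 13733 in wild-type libraries. The groups did not overlap, and its log2 fold change of -0.83 (SE 0.31, adjusted p = 0.451 in limma) was -0.51 without labelled-knockout library 1. Ucp1, the uncoupling protein of brown fat, had 7234 normalized counts in labelled-knockout library 1, 48.4 and 5.15 in libraries 2 and 3 and 0.925 to 10.03 in wild type. Ucp3, the uncoupling protein of muscle, stood at 59.5 ± 44.4 in labelled knockout and 45.5 ± 20.6 in wild type. Mtch1 and Mtch2, carrier-like proteins of the outer membrane, had log2 fold changes of 0.12 each (adjusted p = 0.841 in limma and 0.811). The list of other mitochondrial metabolite and ion carriers, to which these 5 genes belong, had 23 genes. Its median log2 fold change was 0.12, or 0.014 without labelled-knockout library 1. At an unadjusted p under 0.05, 1 was higher and 1 lower, where 3.94% and 6.14% of all genes were. The higher one was Abcb10, a haem pathway transporter (log2 fold change 0.38, SE 0.16, adjusted p = 0.484 in limma), and the lower one was Ucp2.

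SLC25 proteins are made in the cytosol and reach the inner membrane through the TOM pore and the TIM22 complex. Of 14 genes of that import route, 12 had log2 fold changes below 0, beside 50.1% of all genes. Among the 12 was Tomm6, with 1 to 8 reads in each library (SE 0.77), too few to settle its direction. The median log2 fold change of the 14 was -0.29, and between -0.36 and -0.23 with 1 library left out. None passed limma's adjusted threshold or that of DESeq2. At an unadjusted p under 0.05 there were 4, all lower, where 6.14% of all genes were lower at that level. Tomm5, a small subunit of the pore, had 755, 1043 and 1068 normalized counts in labelled knockout against 1582, 1493 and 1273 in wild type (log2 fold change -0.61, SE 0.19, adjusted p = 0.391 in limma). The intermembrane space chaperone genes Timm8b (log2 fold change -0.52) and Timm9 (-0.44) and the small pore subunit gene Tomm7 (-0.80) made up the others, and the groups did not overlap for any of these 4. Over the 14 genes the groups did not overlap for 6 that were lower and 1 that was higher. Of all genes, 9.43% were lower and 8.27% higher without overlap. Tomm7 had 493 normalized counts in wild-type library 3, close to the 472 to 486 of the libraries labelled knockout, and 1049 and 1117 in the other 2 wild-type libraries.

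Enzymes that use the carried substrates were read as a list. Of 30 such genes, 19 had log2 fold changes above 0 and 11 below, beside 49.9% and 50.1% of all genes. The list had a median log2 fold change of 0.09, or -0.02 without labelled-knockout library 1. No gene passed the adjusted threshold. At an unadjusted p under 0.05 there was 1 of the 30, where 10.1% of all genes were at that level. It was Mthfd1l, a formate-producing enzyme of mitochondrial folate metabolism, at 153 ± 69.8 normalized counts in labelled knockout and 320 ± 95.9 in wild type (log2 fold change -1.13, SE 0.41, adjusted p = 0.435 in limma). The groups overlapped, and the value was -0.70 without labelled-knockout library 1. Oat, which makes or uses ornithine in the matrix, stood at 4543 ± 888 and 3333 ± 523, and Pcx, the pyruvate carboxylase, at 10657 ± 5927 and 5461 ± 1706, with 17492 in labelled-knockout library 1.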

How the data were processed

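Kidney RNA was sequenced in 6 libraries, and samples were grouped by title and genotype in the labels. Each deposited signal is a count per gene that the authors scaled by 1 size factor for each library. This was read from the values, of which 100% were whole multiples of 1 step within 0.001 reads, which gave back whole reads. The build was mm10, per the submitters' processing notes. The sources used here do not give the aligner, counting program or use of strand, so genes with overlapping exons on the other strand (14 members overlap another gene) or near-identical copies are uncertain.

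The members and lists were chosen with earlier results of these data known. Fits used limma 3.58.1 (trend and robust) in R 4.3.3 on log2(value + 1), which understates changes of low genes, with edgeR 4.0.16 and DESeq2 1.42.0 on recovered reads as alternatives. All were tested on simulated data with 20964 genes for limma, where limma made 7 false calls, edgeR 5 and DESeq2 23. Named with every library's value were members at an unadjusted p under 0.05, members with a mean of at least 50 and a 4-fold range, the 8 highest per length and 8 set genes. Others given with all values (Slc25a15, Slc25a16, Slc25a23, Slc25a31, Slc25a40, Slc25a44), the import gene Timm9 and the shares of related carriers were chosen after values were seen. TPM used the lengths in the files, equal to GENCODE M21 exon unions for 43 of 46 members. Intervals and spreads cover these libraries only. Of the members, 1 that is counted in the totals is not reported by name here. Alternatives changed the pseudocount, filter, scaling, tool, replicate term or left out 1 library.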

Additional observations from a re-analysis of the deposited data

How the results depend on the processing

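Across 15 alternatives, no SLC25 gene was called except with DESeq2, which called 1. The 15 genes named by rule kept their direction and their side of the threshold in 213 of 225 values. Slc25a25 passed with DESeq2 (log2 fold change -1.11), and in the others that changed the direction turned, by 1 library in Slc25a10 and Slc25a51, whose reported values were -0.30 and 0.27. Slc25a37 stood at -0.015 after TMM scaling. With 1 library left out, Slc25a37 ran from -0.13 to 0.15, Slc25a51 from -0.0054 to 0.42, Slc25a11 from -0.14 to 0.11, Slc25a5 from -0.33 to 0.0020, Slc25a39 from -0.062 to 0.30 and Slc25a10 from -0.62 to 0.025. The median over members was lowest, at -0.041, without wild-type library 1 and highest, at 0.15, without wild-type library 3. The count of genes called over all genes, 1 as reported, was 316 with DESeq2, 5 without a minimum, 4 after TMM scaling and 2 with a pseudocount of 10, and ran from 1 to 6 with 1 library left out, with 6 without labelled-knockout library 1 and 3 without labelled-knockout library 3. TMM scaling moved the median of all genes by -0.014. Members at an unadjusted p under 0.05 numbered 3 without wild-type library 1 and 4 without wild-type library 2, against 6. With the replicate block 16 genes were called and 5 members had an unadjusted p under 0.05. Deviations of same-numbered libraries correlated at 0.067, -0.15 and 0.12 over 12841 genes, and those of differently numbered libraries at -0.23 to 0.20. With 3 libraries a group, these correlations cannot settle whether the replicate numbers pair the samples. The cause of these shifts was not tested. With 3 libraries a group and a median standard error of 0.22, limma recovered 28% of simulated 2-fold changes.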
